A study of Mus musculus with 18 samples.

Results

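The S100 genes encode small EF-hand proteins that bind calcium, and 10 of them were followed here across all 6 groups of the study, namely S100a3, S100a4, S100a6, S100a7a, S100a8, S100a9, S100a10, S100a11, S100a14 and S100a16. They were taken by symbol from the 23951 genes of the expression table. All 10 passed the filter on low values, a minimum of 1 FPKM (fragments per kilobase of transcript per unit of mapped reads) in 3 or more of 18 libraries. The filter kept 12751 genes for testing.

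The mice carried floxed c-Jun and JunB alleles, Cre-ERT driven by the keratin 5 promoter of basal epidermal cells and the mT/mG reporter, which turns from Tomato to GFP where Cre has acted (DKO*-mT/mG, a psoriasis-like model). Ear skin was collected at day 7 from animals of 8 weeks that had received 4 daily injections of 2 mg tamoxifen, and DAPI-negative CD45- CD49f high cells were sorted into CD34+ bulge hair follicle stem cells (HF-SC) and CD34- basal keratinocytes (b-KC). DKO* mice 814, 815 and 817 each gave a GFP and a Tom fraction of either cell type. Control cells (Co) of either type came from mice 810, 825 and 828, which had the same Cre and reporter, carried c-Jun and JunB as wild type or heterozygous, and were given tamoxifen too. Animals of both sexes on a mixed background were used, and whether the control cells were sorted for GFP or Tom is not given in the sources used here.

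Most S100 proteins work as dimers. Some act inside the cell on annexins, the cytoskeleton and membranes, and others are released and engage receptors such as RAGE and TLR4. S100A8 and S100A9 pair as calprotectin, an abundant neutrophil protein that inflamed keratinocytes also make, and the human family members are long-standing psoriasis markers, the gene cluster lying beside the epidermal differentiation genes.

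The deleted genes were checked first. The HF-SC means of Jun were 983 ± 131 FPKM for Co, 62.8 ± 29.6 for GFP and 418 ± 170.0 for Tom (SD, n = 3). The b-KC means were 952 ± 66.3 FPKM for Co, 49.6 ± 18.2 for GFP and 264 ± 123 for Tom. Junb, in log2 fold change, fell by 2.88 in HF-SC GFP and by 3.69 in b-KC GFP. In the Tom fraction of b-KCs both genes fell, Jun by 1.94 ± 0.40 (SE, adjusted p = 0.00114 by limma) and Junb by 1.27 ± 0.30 (adjusted p = 0.00308). In that of HF-SCs neither passed, Jun at -1.30 ± 0.40 (adjusted p = 0.0155) and Junb at -0.56 ± 0.30 (adjusted p = 0.147). Cd34, which defined the sort, had 640 to 889 FPKM in HF-SC Co and at most 2.53 in any b-KC library. No S100 gene of the list stood at 0 in any library, whereas the keratin genes were listed at 0 in some, Krt15 in 1 library of HF-SC Co and Krt14 in 1 of b-KC GFP and 2 of b-KC Tom. The libraries had an implied depth of 16530000 to 26250000 reads, and 3 reads on a transcript of 1 kb were worth 0.114 to 0.181 FPKM.

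All 10 genes lie on chromosome 3. In the NCBIM37 annotation S100a14 (90330778 to 90332755) and S100a16 (90341176 to 90347073) are followed by S100a3 (90404137 to 90406624), S100a4 (90407692 to 90409967), S100a6 (90416816 to 90418336), S100a7a (90458224 to 90462052), S100a8 (90472993 to 90473956) and S100a9 (90496554 to 90499643, the only one of the 10 on the minus strand). S100a11 (93324410 to 93330209) and S100a10 (93359002 to 93368565) lie 2825 kb farther on, behind 52 other genes of the table, among them the Lce, Sprr, Ivl and Lor genes of the cornified envelope. RefSeq promoter windows (GRCm38.p6, 250 bases before to 50 after the start of a transcript) were given for 8 of the 10, all but S100a10 and S100a14. The 4 windows shown are those of the pair that rose most, S100a8 and S100a9, of the gene that fell most, S100a4, and of S100a11, which has the only double match to the AP-1 motif. They are written 5′ to 3′ on the gene's strand with motif matches in capitals.
S100a8 (chr3:90668821-90669120, plus strand): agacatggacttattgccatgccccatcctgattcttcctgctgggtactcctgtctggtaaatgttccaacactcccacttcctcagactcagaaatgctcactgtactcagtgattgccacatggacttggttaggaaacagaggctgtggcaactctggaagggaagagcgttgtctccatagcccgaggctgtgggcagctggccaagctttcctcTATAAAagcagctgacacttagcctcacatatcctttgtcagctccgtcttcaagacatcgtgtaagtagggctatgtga
S100a9 (chr3:90695672-90695971, minus strand): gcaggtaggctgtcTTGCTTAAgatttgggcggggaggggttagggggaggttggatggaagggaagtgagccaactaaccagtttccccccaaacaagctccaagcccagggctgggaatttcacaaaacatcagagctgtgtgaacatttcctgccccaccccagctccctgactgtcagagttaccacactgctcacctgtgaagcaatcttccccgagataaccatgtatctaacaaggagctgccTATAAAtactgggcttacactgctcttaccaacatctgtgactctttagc
S100a4 (chr3:90603520-90603819, plus strand): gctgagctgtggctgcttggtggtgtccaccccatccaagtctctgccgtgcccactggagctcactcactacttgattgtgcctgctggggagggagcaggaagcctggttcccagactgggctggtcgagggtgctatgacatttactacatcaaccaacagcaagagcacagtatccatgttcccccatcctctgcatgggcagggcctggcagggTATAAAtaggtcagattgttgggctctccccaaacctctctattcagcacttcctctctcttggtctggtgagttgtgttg
S100a11 (chr3:93520246-93520545, plus strand): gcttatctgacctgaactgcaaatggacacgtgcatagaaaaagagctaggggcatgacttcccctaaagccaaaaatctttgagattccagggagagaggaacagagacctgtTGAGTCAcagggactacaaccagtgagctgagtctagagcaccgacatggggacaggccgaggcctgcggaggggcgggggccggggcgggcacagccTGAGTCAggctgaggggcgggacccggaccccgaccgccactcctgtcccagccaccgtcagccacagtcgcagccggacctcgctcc

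The following 4 motifs were searched on both strands. The first, TGANTCA, is bound by AP-1, the dimers of which c-Jun and JunB are parts, and was found in 7.81% of 32851 RefSeq promoter windows and in 5.4% of the 12097 windows of tested genes. S100a11 held it at bases 115 to 121 and 213 to 219 of its window, and S100a16 at bases 59 to 65 of 1 of its 2 windows. The windows of S100a8 and S100a9 did not hold these letters. TATAAA, the TATA box, was found in 13.6% of all windows and starts at base 221 in S100a8 and at base 220 in S100a4, about 30 bases before the start, and at base 251 in S100a9, on the annotated start itself. S100a3 held it in 1 of 4 windows. TTNNGCAA, a C/EBP motif (10.8% of all windows), occurred in S100a9 at bases 15 to 22 on the opposite strand, and TTCNNNGAA, a STAT motif (8.3% of all windows), in S100a7a at bases 82 to 90. None of these matches is a measured binding site.

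S100a8 and S100a9 stood at 62.0 FPKM or less in every control library and at 2723 FPKM or more in every DKO* library. In HF-SCs, S100a8 measured 30.2, 2.87 and 49.2 FPKM for control mice 810, 825 and 828. For DKO* mice 814, 815 and 817 the GFP cells held 29379, 17977 and 13146 FPKM, and the Tom cells 22949, 8262 and 4063. The lowest DKO* library thus stood far above the highest control. In b-KCs, S100a8 measured 61.9, 3.27 and 62.0 FPKM for the controls, 57584, 48183 and 13415 for the GFP cells and 44024, 34223 and 14189 for the Tom cells, again with no overlap between Co and either fraction. Values by mouse are given in this order throughout.

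S100a9 followed the same pattern. HF-SCs held 10.5, 1.84 and 25.5 FPKM of it in controls, against 14692, 8404 and 5545 with GFP and 10477, 4962 and 2723 with Tom. Control b-KCs held 34.2, 2.19 and 33.5 FPKM, against 37576, 27536 and 7092 with GFP and 19438, 17342 and 7487 with Tom. Here too each control library was below each DKO* library. The 2 transcripts kept a narrow ratio over this range, S100a8 over S100a9 being 1.49 to 2.89 in all 18 libraries, with group means from 1.72 to 2.17.

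**Figure D1:**
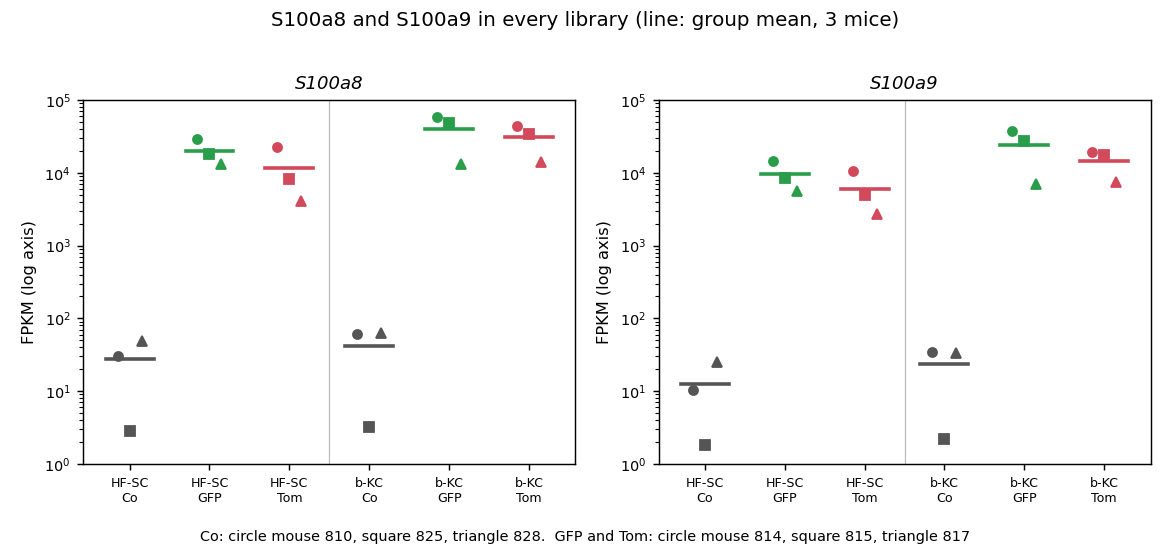
FPKM of S100a8 (left) and S100a9 (right) on a log axis in the 18 libraries, by group, with one point per mouse and a line at the group mean. Every DKO* library lies at 2723 FPKM or more, and every Co library at 62.0 FPKM or less.

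On the log2(FPKM + 1) scale S100a8 rose by 10.03 ± 1.06 (SE, adjusted p = 3.48e-06 by limma) in HF-SC GFP and by 8.97 ± 1.06 (adjusted p = 8.17e-06) in HF-SC Tom. In b-KC it rose by 10.35 ± 1.06 (adjusted p = 6.6e-06) in GFP and by 10.08 ± 1.06 (adjusted p = 5.18e-06) in Tom. S100a9 rose by 9.85 and 9.10 in HF-SC GFP and Tom and by 10.27 and 9.76 in b-KC GFP and Tom, with an SE of 0.95 and an adjusted p of at most 2.43e-06 in each. The group means of S100a8 were 735 and 429 times those of HF-SC Co and 938 and 727 times those of b-KC Co. The GFP and Tom comparisons of a cell type share their Co libraries.

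A single control mouse set part of these sizes. In mouse 825, S100a8 stood 10.5-fold below the lower of the other 2 controls in HF-SC and 18.9-fold in b-KC, and S100a9 stood 5.69-fold and 15.3-fold below. Without mouse 825 the change of S100a8 was 8.91 for GFP and 7.86 for Tom among HF-SCs, and 9.05 and 8.79 among b-KCs. The change of S100a9, in that order, was then 8.98, 8.22, 9.12 and 8.61. All 8 stayed past the threshold. The DKO* mice differed too, and in the same order everywhere. Mouse 814 had the most and mouse 817 the least S100a8 in each of the 4 populations. In the Tom fractions of these mice Jun ran from 308 to 332 to 614 FPKM in HF-SC and from 163 to 229 to 400.4 in b-KC. The GFP fractions went otherwise, with Jun at 69.6, 88.4 and 30.4 FPKM in HF-SC and 53.9, 65.4 and 29.6 in b-KC, lowest in mouse 817. Whether S100a8 and Jun are linked was not tested.

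Together S100a8 and S100a9 made up 4.76 to 9.24% of the summed FPKM in HF-SC GFP, 1.84 to 6.83% in HF-SC Tom, 4.12 to 13.5% in b-KC GFP and 3.99 to 10.7% in b-KC Tom. In Co they made up 0.00115 to 0.0207%, while the other 8 genes held 0.489 to 1.12% in every library. S100a8 was the gene with the highest FPKM in 11 of the 12 DKO* libraries. The exception was HF-SC Tom of mouse 817, where S100a8 ranked 3 and S100a9 ranked 5.

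Because neutrophils also carry both proteins, their marker genes are given beside this result. Of 11 listed, 10 were in the table and 2, Cxcr2 and Itgam, passed the filter. The 10 summed to 1.58 to 2.26 FPKM in Co and 6.77 to 12.6 in the DKO* libraries, most of it from Cxcr2, a chemokine receptor, at 1.20 to 10.3 FPKM. Cxcr2 rose in all 4 DKO* populations (log2 fold changes 1.25 to 2.06). Itgam, which encodes CD11b, reached 1.60 FPKM and rose in HF-SC GFP alone among the 4 comparisons (1.06). Of the other 8, the granule genes Elane, Mpo, Ngp and Ltf never exceeded 0.145 FPKM, and Csf3r, the G-CSF receptor, never exceeded 0.367. Mmp8, Camp and Retnlg reached 0.686, 1.52 and 2.19 FPKM, each in a DKO* library, and were at 0 in the lowest. All 12 DKO* libraries held 4063 FPKM or more of S100a8. The Langerhans cell list summed to 6.37 to 14.4 FPKM in Co and 153 to 1482 in DKO* libraries, from Cd74 and the MHC class II genes, with Cd207 itself at 1.07 or less. Leukocyte genes summed to 1.61 to 7.53 FPKM in Co and 5.77 to 29.6 in DKO*, with Ptprc, which encodes the CD45 excluded in the sort, at 0.946 or less. The part of the neutrophil, Langerhans and leukocyte transcripts in the result was not tested, and the FPKM of marker genes does not count such cells. In bulk samples, more cells with a transcript and more transcript per cell cannot be told apart.

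**Figure D2:**
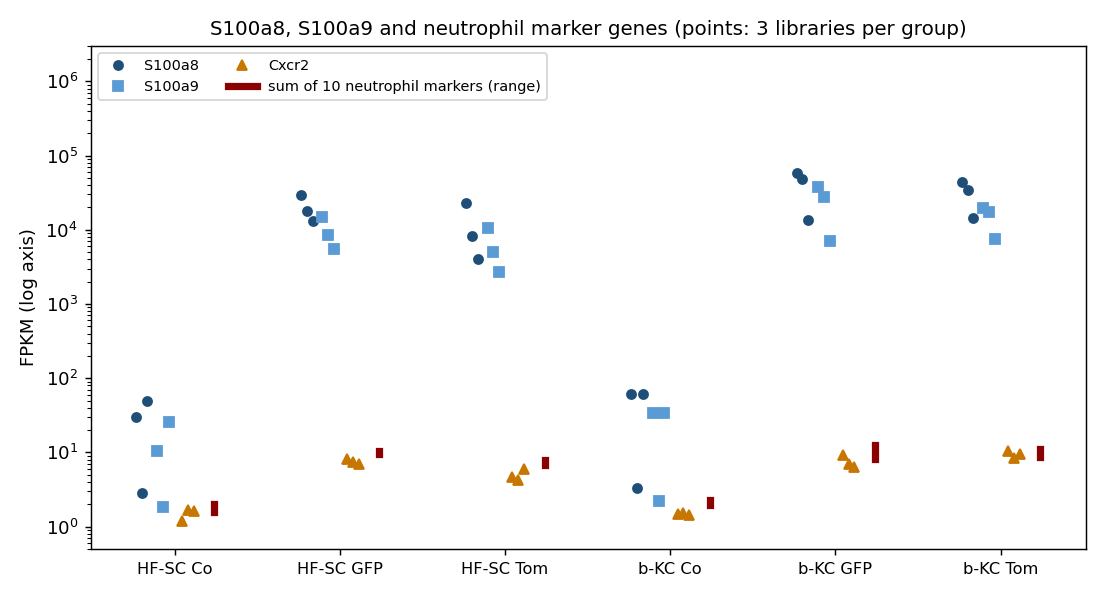
FPKM on a log axis of S100a8, S100a9 and Cxcr2 in each library (points), and the range over the 3 libraries of a group of the summed FPKM of 10 neutrophil marker genes (dark red bars). The marker sum stays at 12.6 FPKM or less where S100a8 reaches 57584.

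Among the 8 other genes the changes in HF-SCs ran in both directions. Of the 10 genes, 3 rose (S100a8, S100a9 and S100a14) and 3 fell (S100a3, S100a4 and S100a10) in HF-SC GFP, where 13% of all genes tested rose and 12.3% fell. In HF-SC Tom the same 3 rose and 2 fell (S100a3 and S100a4), against 15.7% and 13.9% of all genes. In b-KC GFP, S100a8 and S100a9 rose and none of the 10 fell, against 12.5% and 12% of all genes, and the counts were the same in b-KC Tom, against 15.4% and 15.3%. The median change of the 10 was 0.32, 0.37, 0.28 and 0.39 in these comparisons, and that of all genes tested -0.05, -0.04, -0.03 and -0.02.

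**Figure D3:**
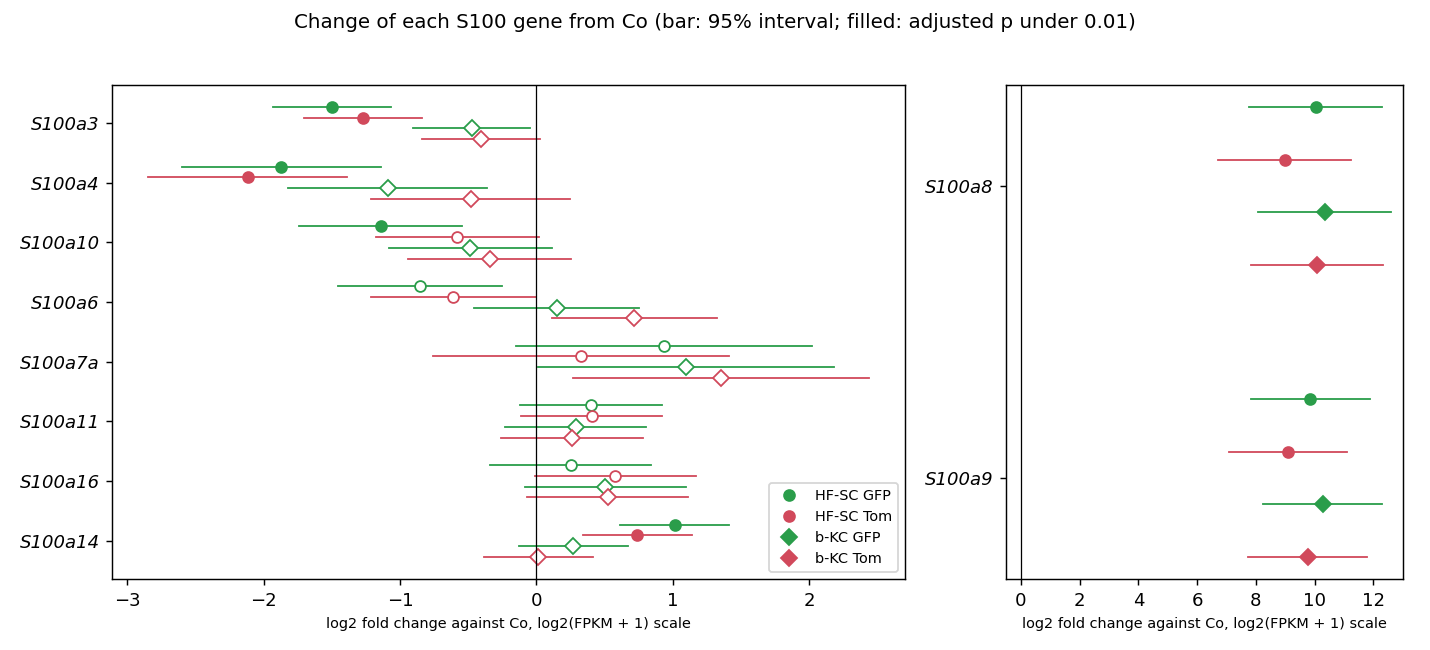
Log2 fold change against Co, on the log2(FPKM + 1) scale, of 8 S100 genes (left) and of S100a8 and S100a9 (right, wider axis) in the 4 DKO* populations, with 95% intervals from limma and filled symbols at an adjusted p under 0.01. S100a3, S100a4 and S100a14 carry filled symbols in HF-SC and open ones in b-KC.

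S100a4, a metastasis-linked protein that binds non-muscle myosin, was the S100 gene that differed most between control HF-SCs and control b-KCs. Control HF-SCs held 1031, 557 and 1073 FPKM of it, GFP cells 247, 226 and 224, and Tom cells 221, 296 and 114. Every HF-SC Co library lay above every DKO* library, and mouse 825 was again the lowest control. The fall was 1.87 ± 0.34 on the log2 scale (adjusted p = 5.27e-04 by limma) in GFP and 2.12 ± 0.34 (adjusted p = 1.47e-04) in Tom. Control b-KCs held 81.4, 76.1 and 100.04 FPKM of S100a4, GFP cells 38.2, 46.2 and 34.9, and Tom cells 35.7, 82.6 and 75.9. The GFP fraction lay below Co in all libraries, with a change of -1.09 ± 0.34 that missed the threshold (adjusted p = 0.0192) and passed it with the libraries rescaled to 1 upper quartile (0.00963) or to 1 sum without the S100 genes (0.00405) and in a fit of these groups alone (0.00325). The Tom fraction overlapped Co (-0.48 ± 0.34).

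S100a3, a cysteine-rich protein of the hair cuticle, behaved likewise at a lower level. The control HF-SC libraries read 14.7, 17.2 and 20.3 FPKM, those of GFP cells 5.35, 4.95 and 6.14, and those of Tom cells 5.26, 8.07 and 6.59, with no overlap between Co and either fraction. It fell by 1.50 ± 0.20 on the log2 scale (adjusted p = 3.83e-05) in GFP and by 1.27 ± 0.20 (adjusted p = 1.3e-04) in Tom. Control b-KCs held 2.41 to 4.22 FPKM of S100a3, GFP cells 1.96 to 2.11 and Tom cells 1.33 to 2.84. The GFP libraries lay below all controls and the Tom libraries overlapped them, and the changes of -0.48 (adjusted p = 0.0719 by limma) and -0.41 did not pass. S100a3 and S100a4 are neighbours, 1.07 kb apart, and over the 18 libraries their log2 levels had a Pearson r of 0.948, as a description. Of 8 listed bulge markers, 5 fell in each HF-SC fraction and 3 did not pass, among them Krt15 and Nfatc1 in both. Krt15, which was listed at 0 for control mouse 828, measured 11261 and 11763 FPKM for HF-SCs of control mice 810 and 825 and 2848 to 5841 in the 6 libraries of the fractions, so its fitted log2 change is not given. Cd34 had a mean of 736 ± 134 FPKM in HF-SC Co, 198 ± 34.4 in GFP and 286 ± 30.0 in Tom, and Lgr5 158 ± 16.02, 50.3 ± 16.4 and 44.4 ± 23.8. Fibroblast markers, whose cells also express S100a4, summed to 46.6 to 96.1 FPKM in HF-SC Co, 19.5 to 121 in HF-SC GFP and 13.9 to 116 in HF-SC Tom. The part of these markers in the falls was not tested.

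S100a10, the partner of annexin A2 at the plasma membrane, read 750.0, 427 and 587 FPKM in control HF-SCs against 321, 220 and 247 with GFP, and fell by 1.14 ± 0.28 on the log2 scale (adjusted p = 0.0047). This call was lost without mouse 810 (adjusted p = 0.0363), 815 (0.0572) or 828 (0.0250). HF-SC Tom cells held 521, 428 and 252 FPKM of S100a10 (-0.58 ± 0.28, adjusted p = 0.107). Among b-KCs the ranges were 508 to 560 FPKM for Co, 364 to 404 for GFP and 296 to 587 for Tom, and neither change passed. S100a6, or calcyclin, which marks proliferating cells, read 1698, 847 and 1136 FPKM in control HF-SCs, 841, 596 and 550 with GFP and 971, 889 and 531 with Tom. Its change in HF-SC GFP, -0.85 ± 0.28, missed the threshold (adjusted p = 0.0261) and passed it under both rescalings (0.00884 and 0.00368). In b-KC Tom it had 614, 924 and 984 FPKM against 466 to 553 in Co, without overlap, and a change of 0.72 ± 0.28 (adjusted p = 0.0495).

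Endothelial genes differed between these libraries, the 12 listed summing to 62.3 to 103 FPKM in HF-SC Co, 2.19 to 38.5 in HF-SC GFP and 521 to 1665 in HF-SC Tom. S100a4, S100a6 and S100a10 are known in endothelium as well, and the share of their FPKM in HF-SC Tom that came from such cells was not tested.

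S100a14, an epithelial member of the family, went the other way from S100a3 and S100a4. Control HF-SCs held 55.9, 60.5 and 66.4 FPKM, GFP cells 169.9, 120.01 and 93.1, and Tom cells 117, 106 and 85.9. All 6 DKO* libraries lay above all 3 controls. It rose by 1.01 ± 0.19 (adjusted p = 5.62e-04) in GFP and by 0.74 ± 0.19 (adjusted p = 0.00504) in Tom. The GFP call sat at an adjusted p of 0.01003 without mouse 815. The Tom call was lost in a fit of the 2 groups alone (0.0155) and without mouse 810 (0.0290), 815 (0.0468), 825 (0.0210) or 828 (0.0138). In b-KCs S100a14 ranged from 186 to 228 FPKM for Co, 213 to 283 for GFP and 191 to 217 for Tom, with changes of 0.27 and 0.02 that did not pass. Of 5 tested genes of differentiated keratinocytes, 3 rose in HF-SC GFP (Krt1, Ivl and Krtdap) and 2 in HF-SC Tom (Krt1 and Krtdap), while Krt10 (0.63 and -0.39) and Lor (-0.35 and -1.56) passed in neither. The list summed to 669 to 875 FPKM in Co, 1679 to 3382 in GFP and 1610 to 2064 in Tom, and its part in the result was not tested.

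S100a11, a binding partner of annexin A1, and S100a16 did not pass in any comparison with Co. S100a11 had 492 to 808 FPKM in HF-SC Co, 634 to 1035 in HF-SC GFP and 649 to 988 in HF-SC Tom, with 95% intervals for the log2 change of -0.12 to 0.92 in GFP and -0.11 to 0.92 in Tom. Its b-KC ranges were 1127 to 1240 FPKM for Co, 1164 to 1589 for GFP and 1284 to 1643 for Tom. S100a16 had 180 to 216 FPKM in HF-SC Co, 164 to 330 in HF-SC GFP and 239 to 356 in HF-SC Tom. Among b-KCs it ranged from 352 to 443 FPKM for Co, 364 to 743 for GFP and 490 to 712 for Tom, the Tom libraries lying above all controls. Its changes were 0.58 in HF-SC Tom and 0.51 and 0.52 in the GFP and Tom fractions of b-KCs, and all 3 passed without mouse 817 (adjusted p = 0.00394, 0.00162 and 0.00867 by limma).

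S100a7a, the mouse relative of human psoriasin, stayed low. Control HF-SCs held 2.90, 1.44 and 1.88 FPKM of it, GFP cells 8.58, 8.08 and 1.19, and Tom cells 1.79, 2.31 and 4.87. Control b-KCs held 0.523, 0.0596 and 0.397 FPKM, of which the value of mouse 825 lay under what 3 reads are worth for this gene (0.154 to 0.245 FPKM). The b-KC GFP cells held 2.05, 3.77 and 0.508 FPKM and the Tom cells 1.46, 4.04 and 2.05. No comparison with Co passed, the changes being 0.93, 0.33, 1.09 and 1.36 with adjusted p values of 0.162, 0.627, 0.0968 and 0.0403. Without mouse 817 the change was 1.63 for GFP among HF-SCs (adjusted p = 3.76e-04), and 1.54 (4.91e-04) for GFP and 1.43 (8.98e-04) for Tom among b-KCs. Mouse 817 gave the lowest library of both GFP groups. The b-KC Tom change also passed with all mice in a fit of these groups alone (0.00494) and with a pseudocount of 0.1 (0.00922). At these levels the pseudocount sets the size of the change. With 0.1 in place of 1 it was 2.71 for b-KC Tom and 2.225 (adjusted p = 0.0294) for b-KC GFP, and the group means of S100a7a were 7.70 and 6.46 times that of b-KC Co.

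**Figure D4:**
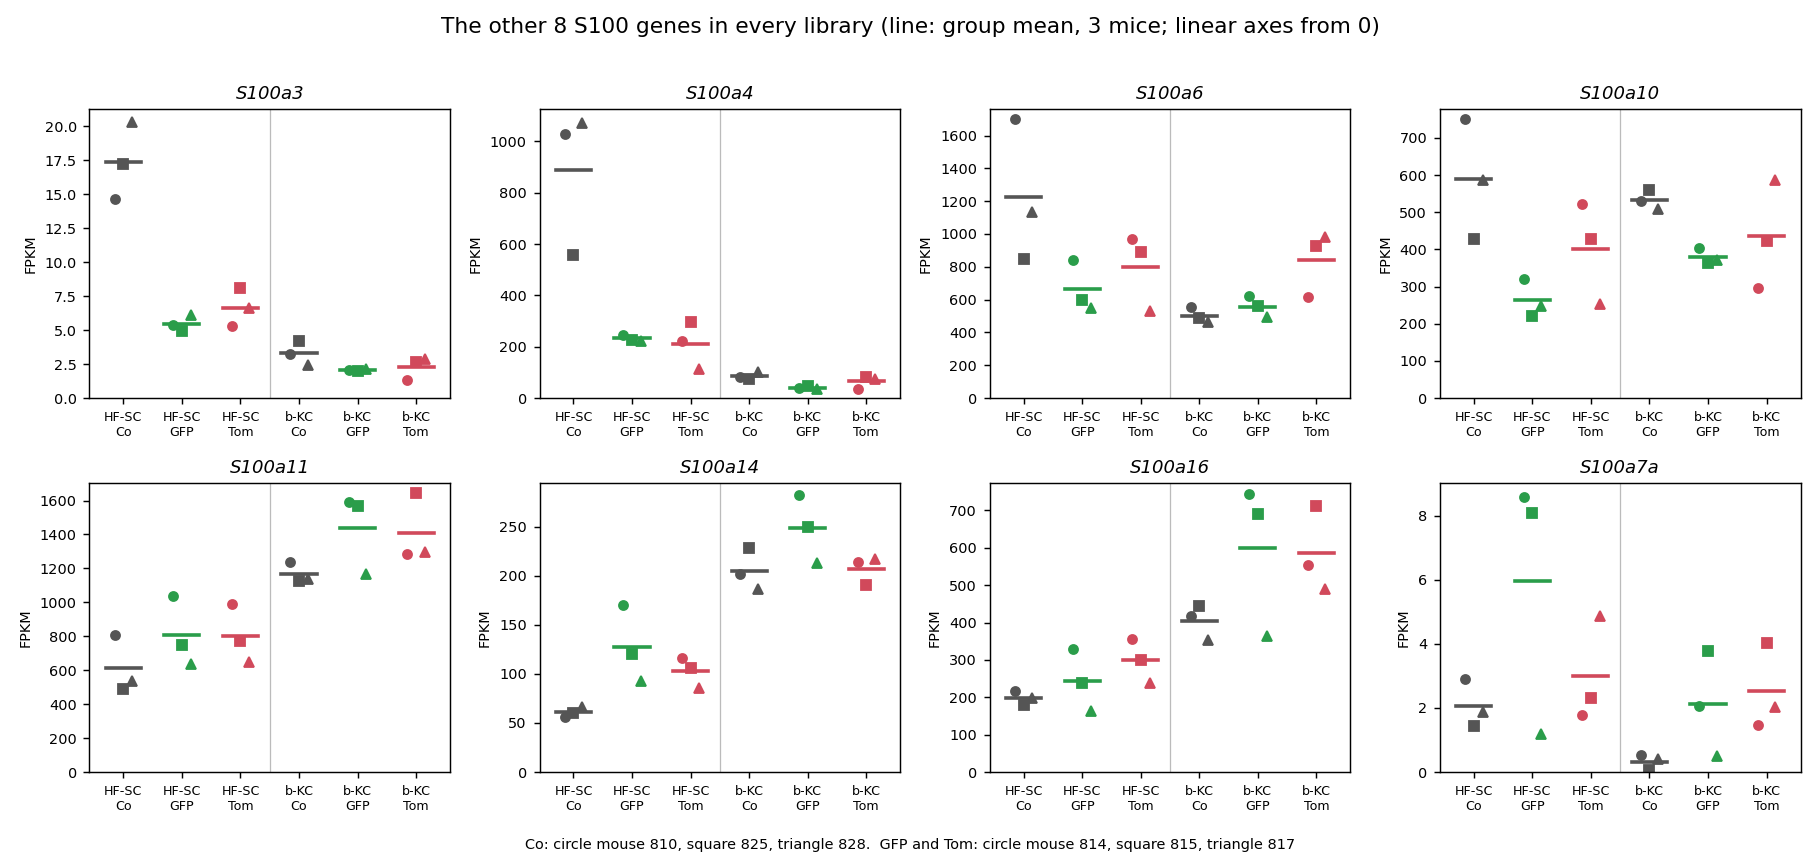
FPKM of the 8 S100 genes other than S100a8 and S100a9 in the 18 libraries on linear axes from 0, by group, with one point per mouse and a line at the group mean. S100a3, S100a4, S100a6 and S100a10 have their highest mean in HF-SC Co, and S100a11, S100a14 and S100a16 theirs in b-KC GFP.

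Neighbours along the chromosome are set side by side here, with no test of position. S100a3 and S100a4 fell together in HF-SC, and S100a8 and S100a9 rose together in all 4 populations. S100a7a starts 14.8 kb before S100a8 with no other gene of the table between them, and in the library with the most S100a8, b-KC GFP of mouse 814 at 57584 FPKM, it stood at 2.05 FPKM. S100a8 and S100a9 lie 22.6 kb apart on opposite strands, again with no table gene between them. S100a6, the next gene before S100a7a, lies 39.9 kb from it and did not pass in any comparison with Co.

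**Figure D5:**
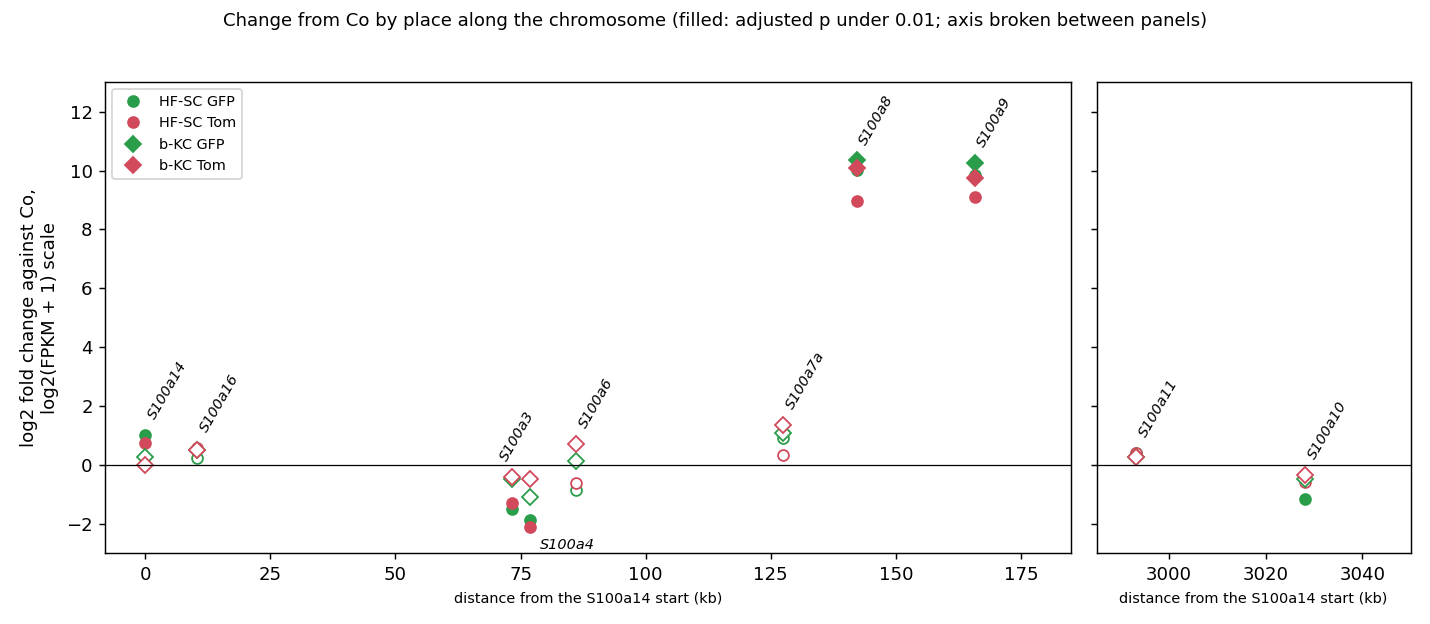
Log2 fold change against Co, on the log2(FPKM + 1) scale, of the 10 S100 genes in the 4 DKO* populations, placed by the distance of their starts from that of S100a14 in kb, with a break of the axis before S100a11. Filled symbols passed an adjusted p of 0.01, and only S100a8 and S100a9 exceed a change of 2.12 in size.

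The GFP and Tom cells of the same skin were then compared, the Tom cells being those in which the reporter had not turned, although Jun and Junb had fallen in b-KC Tom too. In HF-SC Tom both lay below Co without overlap, with changes of -1.30 and -0.56 that did not pass. A difference between the cell types in the Tom change of Jun or Junb was not shown (adjusted p = 0.50 and 0.29 by limma). None of the 10 genes differed between GFP and Tom by limma in HF-SC, where 0.902% of all genes tested were higher in GFP and 4.09% lower, or in b-KC, where 0.361% were higher and 0.125% lower. At an unadjusted p under 0.05 the count was also 0 in both, where 9.17% of all genes tested were higher and 10.8% lower in HF-SC and 6.85% higher and 4.68% lower in b-KC, and a random mouse block in the fit left it at 0 at the adjusted threshold. The intervals were wide for the genes that changed most, -1.21 to 3.32 on the log2 scale for S100a8 in HF-SC and -1.996 to 2.53 in b-KC. Within each mouse, S100a8 in HF-SC was 1.28, 2.18 and 3.24 times higher in GFP than in Tom in mice 814, 815 and 817, and S100a9 was 1.40, 1.69 and 2.04 times higher. In b-KC the ratios were 1.31, 1.41 and 0.946 for S100a8 and 1.93, 1.59 and 0.947 for S100a9. S100a10 (0.616, 0.513 and 0.979 times) and S100a16 (0.926, 0.795 and 0.686 times) were lower in GFP than in Tom in all 3 mice in HF-SC. S100a14 (1.46, 1.13 and 1.08 times) was higher. The share of all genes that kept 1 direction in 3 mice is not given here. The HF-SC Tom libraries held endothelial sums of 521 to 1665 FPKM, against 2.19 to 38.5 in HF-SC GFP. The part of endothelial cells in these HF-SC differences was not tested. Leaving out mouse 817 brought S100a7a past the threshold in HF-SC (1.62, adjusted p = 0.00190).

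Control HF-SCs and control b-KCs had different S100 profiles. HF-SC Co had more of 3 genes (S100a3, S100a4 and S100a6) and less of 3 (S100a11, S100a14 and S100a16), against 18.7% and 19.3% of all genes tested. S100a4 was higher by 3.30 ± 0.34 (adjusted p = 1.18e-06) and was 12.7, 7.32 and 10.7 times as high as in b-KC of the same mice. S100a3 was higher by 2.11 ± 0.20 (adjusted p = 5.58e-07), and S100a6 by 1.23 ± 0.28 (adjusted p = 0.00195). S100a14 was lower by 1.73 ± 0.19 (adjusted p = 1.81e-06), S100a16 by 1.02 ± 0.28 (adjusted p = 0.00602) and S100a11 by 0.96 ± 0.24 (adjusted p = 0.0038). For each of these 6 genes all 3 mice showed the direction.

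With single mice left out, 3 of these 6 calls missed the threshold while their sizes changed little. The log2 difference stayed within 1.04 to 1.45 for S100a6, -1.14 to -0.85 for S100a11 and -1.12 to -0.89 for S100a16, and without mouse 815, a DKO* mouse of neither Co group, it was unchanged. S100a6 missed the threshold without mouse 810 (adjusted p = 0.0223) or 828 (0.0211). S100a11 missed it without mouse 815 (0.0158), 825 (0.0456) or 828 (0.0399) and with no filter on low values (0.0113). S100a16 missed it without mouse 810 (0.0333), 815 (0.0173), 825 (0.0689) or 828 (0.0257), with no filter (0.0113) and with rescaling to 1 upper quartile (0.0125). S100a7a was 5.53, 24.2 and 4.75 times as high in HF-SC Co as in b-KC Co within mice. Its difference of 1.20 ± 0.51 did not pass (adjusted p = 0.0596), but did with a fixed mouse block (9.52e-05), in a fit of these groups alone (0.00111) and without mouse 817 (0.00107). Mouse 817 is a DKO* mouse of neither Co group, and without it the difference stayed at 1.20, so only the p-value moved. S100a8, S100a9 and S100a10 did not pass (-0.49, -0.72 and 0.11). Within mice 810, 825 and 828 S100a8 in HF-SC Co was 0.489, 0.878 and 0.794 times that in b-KC Co and S100a9 0.305, 0.839 and 0.761 times, lower in all 3. With a fixed mouse block their adjusted p was 0.0333 and 0.0412, still short of the threshold.

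The order of the group means summarises this. S100a3 and S100a4 were highest in HF-SC Co, followed without overlap by both HF-SC DKO* fractions, which overlapped each other, and then without overlap by the 3 b-KC groups. S100a11 and S100a14 had all 3 b-KC groups above all 3 HF-SC groups, with a gap between the lowest b-KC group, Co, and the highest HF-SC group, GFP. S100a8 and S100a9 put b-KC GFP first, with means of 39727 ± 23267 and 24068 ± 15535 FPKM, then b-KC Tom, HF-SC GFP and HF-SC Tom, each overlapping the next, and both Co groups far below. For S100a6 and S100a10 neighbours in the order overlapped throughout, except b-KC GFP and HF-SC GFP for S100a10. Within each DKO* mouse and fraction S100a8 was lower in HF-SC than in b-KC, 0.241 to 0.980 times, and so was S100a9, 0.286 to 0.782 times.

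Whether the change from Co differed between the cell types was tested by the interaction. None of the 10 passed for GFP, where 3.32% of all genes were higher and 1.89% lower, or for Tom, with 5.93% and 2.12%. At an unadjusted p under 0.05 by limma, 1 was higher and 2 lower for GFP, beside 14.4% and 13.7% of all genes, and 1 was higher and 3 lower for Tom, beside 16.1% and 12.9%. For GFP, the log2 change of S100a3 in HF-SC minus that in b-KC was -1.02 ± 0.29 (adjusted p = 0.0289), and under a random mouse block this passed (adjusted p = 0.00938). For Tom the difference was -1.63 ± 0.48 for S100a4 (adjusted p = 0.0310) and -1.33 ± 0.40 for S100a6 (adjusted p = 0.0340). S100a14 had differences of 0.74 and 0.72 for GFP and Tom (adjusted p = 0.0792 and 0.0789), the latter passing without mouse 817 (0.88, adjusted p = 0.00976). The falls of S100a3 and S100a4 and the rise of S100a14 passed in HF-SC and not in b-KC, but a difference between the cell types was not shown at the threshold set.

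The remaining 7 S100 symbols of the table gave 2 tested genes. S100a1 means were 29.2 ± 3.28 FPKM in control b-KCs, 84.7 ± 28.5 with GFP and 63.4 ± 8.55 with Tom, and S100a1 rose there by 1.45 ± 0.30 (adjusted p = 0.00159 by limma) and 1.09 ± 0.30 (adjusted p = 0.00779). Its HF-SC means were 79.2 ± 17.6 FPKM for Co, 77.8 ± 29.3 for GFP and 65.2 ± 21.9 for Tom. S100a13, which aids the release of proteins that lack a signal peptide, had means of 12.7 ± 2.52 FPKM in control HF-SCs, 25.9 ± 7.78 with GFP and 39.7 ± 22.0 with Tom, and rose in the Tom cells (1.43 ± 0.35, adjusted p = 0.00372). Its b-KC means were 23.4 ± 1.71 FPKM for Co, 52.3 ± 18.4 for GFP and 44.3 ± 4.14 for Tom, with changes of 1.06 and 0.89 that did not pass. The S100a1 calls were lost without mouse 815 (adjusted p = 0.0250 in GFP and 0.0661 in Tom), 825 (0.0106 and 0.0354) or 828 (0.0101 and 0.0280), and in Tom without mouse 810 (0.0188). The S100a13 call was lost without mouse 814 (0.0191), 815 (0.0390), 825 (0.0262) or 828 (0.0188). The 2 genes lie 0.043 kb apart on opposite strands, without overlap, and the libraries carry no strand. S100a2, S100a5, S100b, S100g and S100z stayed at 0.534 FPKM or less in every library.

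Of 17 genes for partners and receptors of S100 proteins, 15 were tested. Of these 2 rose and 1 fell in HF-SC GFP, 3 rose and 2 fell in HF-SC Tom, 3 rose and 2 fell in b-KC GFP, and 3 rose and 3 fell in b-KC Tom, beside 12 to 15.7% of all genes tested in each direction in these comparisons. Among the annexins, Anxa2, the partner of S100a10, had group means from 1675 to 3141 FPKM and passed in none of the 4. Anxa6 fell in all 4, with log2 changes of -2.28, -1.49, -1.65 and -1.86 in the order just given, from a mean of 46.8 ± 3.73 FPKM in HF-SC Co to 8.86 ± 1.41 in GFP and 16.1 ± 2.44 in Tom. Ahnak, a scaffold bound by S100a10 and Anxa2, fell in b-KC GFP (-0.87) and Tom (-0.76). Anxa11 rose in b-KC Tom (0.90), and Anxa1, the partner of S100a11, passed in none.

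Ager, which encodes RAGE, stayed at 1.05 FPKM or less and was not tested. Tlr4 had 0.811 to 1.60 FPKM in HF-SC Co and 2.73 to 9.61 in HF-SC Tom and rose there (1.85 ± 0.31, adjusted p = 1.78e-04), in the libraries with the high endothelial sums. Mcam, a receptor described for S100A8 and S100A9 that endothelium expresses too, rose from 2.27 ± 0.420 to 24.5 ± 11.6 FPKM in HF-SC GFP and 38.6 ± 19.7 in HF-SC Tom, and from 1.11 ± 0.234 to 26.1 ± 27.7 in b-KC GFP. The b-KC GFP libraries held 9.46, 10.6 and 58.1 FPKM of Mcam, and without mouse 817 their mean was 10.05 and the log2 change went from 3.20 to 2.39. In the GFP libraries of either cell type the endothelial sum was 38.5 FPKM or less, and the source of the Mcam transcripts was not tested. Alcam fell in HF-SC Tom (-1.72) and b-KC Tom (-1.73), its HF-SC libraries overlapping Co. With 1 mouse left out, the HF-SC Tom call of Alcam was lost in every case (adjusted p = 0.0118 to 0.0653) but that of mouse 825, and the b-KC Tom call in every case (0.0115 to 0.0346). Cd36, Bsg and Nptn passed in none. Cacybp, which binds S100a6, rose by 1.09 and 1.29 in b-KC GFP and Tom, and Sugt1, a chaperone partner in the same complexes, by 0.98 and 1.15. The Sugt1 calls were lost without mouse 810, 815, 825 or 828 (adjusted p = 0.0124 to 0.0745), and in GFP without 814 too (0.0103). Without mouse 815 the calls of Cacybp in b-KC GFP (0.0134), of Anxa11 in b-KC Tom (0.0160) and of Ahnak in b-KC GFP and Tom (0.0172 and 0.0151) were lost as well, and the last also without mouse 828 (0.0101). Tgm3, the transglutaminase of hair and epidermis, rose in HF-SC GFP (1.77 ± 0.20) and Tom (1.56 ± 0.20) from 1.25 ± 0.232 FPKM, and stood at 20.5 ± 3.68 in b-KC Co.

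The genes most like each member were sought among all tested genes outside the family, by the Pearson correlation of log2(FPKM + 1) over the 18 libraries, which share mice and groups. S100a8 and S100a9 were closest to each other (r = 0.999) and, outside the family, to Stfa1 (0.990 and 0.991) and Stfa3 (0.980 and 0.982), 2 stefin A genes of a family of near-identical copies, so that their FPKM is uncertain. S100a3 was most like Ptn (0.981) and Prrt2 (0.971), and S100a4 most like Pbx3 (0.978) and Bod1l (0.967). S100a14 was most like Abhd5 (0.983) and Ankrd22 (0.976), and S100a16 most like Ppp1ca (0.983) and Psmd8 (0.980). S100a11 was most like Dynll1 (0.977) and Hmg20b (0.974), S100a10 like Ilk and Cyb5r1 (both 0.912), S100a6 like Setmar (0.892) and Eid1 (0.882), and S100a7a like Degs2 (0.861) and Phlda1 (0.842). S100a7a had an r of 0.508 with its neighbour S100a8, and S100a14 one of -0.924 with S100a3.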

How the data were processed

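RNA-seq of 18 libraries, 3 mice in each of 6 groups, was used, with groups and mouse numbers taken from the sample labels. The authors made non-directional libraries (SMART-Seq v4, Nextera XT), used TopHat 2.0.10 over Bowtie 1.0.0 to align the single-end reads to mouse build NCBI37/mm9, multiple hits being allowed, and deposited the FPKM that Cufflinks gave each gene in each library. No further scaling between libraries is given in the sources used here.

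Genes that reached 1 FPKM in 3 or more libraries were kept. Values were taken as log2(FPKM + 1), which makes the change of low genes look smaller than it is, and entered limma 3.58.1 (lmFit, contrasts.fit, eBayes with a trend, under R 4.3.3). The fit had 1 mean for each of the 6 groups and used all 18 libraries. Benjamini-Hochberg adjustment ran over all tested genes within each of 9 comparisons, and a gene passed at an adjusted p under 0.01. Tests are two-sided.

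The genes named are the 10 S100 genes, the other S100 symbols, 17 partners and receptors, Jun and Junb, genes of cell-type marker lists and the 2 most like genes of each member. The members and the lists were chosen with earlier results of these data known.

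Same-numbered samples came from the same mouse by the labels. Their deviations from the group means correlated by 0.0838 to 0.591 between HF-SC GFP and Tom, 0.242 to 0.687 between b-KC GFP and Tom and 0.204 to 0.317 between the Co groups. Fits with the mouse as a random block (limma's duplicateCorrelation, correlation 0.274) or as a fixed block were made as alternatives.

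Implied depth came from the FPKM steps of 6914 genes annotated with 1 transcript (NCBIM37). Of their low values 79.0 to 83.8% came within 0.1 of whole reads. The floor of 3 reads covers counting error only, and the 95% intervals come from limma's spread between libraries. Plots were made with matplotlib 3.10.9 in Python 3.11.15.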

Additional observations from a re-analysis of the deposited data

How the results depend on the processing

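Of 21 gene results that passed, 11 kept direction and call under every alternative run, among them S100a8 and S100a9 in all 4 comparisons with Co, S100a4 in HF-SC Tom, and S100a3 and S100a4 between the Co groups. With a minimum 4-fold change as well, the count of S100 genes passing went from 6 to 2 in HF-SC GFP, from 5 to 3 in HF-SC Tom and from 6 to 2 between the Co groups. At an adjusted p under 0.05 it went from 6 to 7 in HF-SC GFP (S100a6 added, a fall), from 2 to 3 in b-KC GFP (S100a4 added, a fall), from 2 to 4 in b-KC Tom (S100a6 and S100a7a added), from 0 to 1 for the GFP interaction (S100a3) and from 0 to 2 for the Tom interaction (S100a4 and S100a6). Leaving out each mouse in turn gave 4 to 7 passing genes in HF-SC GFP, 4 to 6 in HF-SC Tom, 2 to 4 in both b-KC comparisons (4 without mouse 817, with S100a7a and S100a16), 0 to 1 for HF-SC GFP against Tom, 3 to 7 between the Co groups (3 without mouse 828) and 0 to 1 for the Tom interaction, both times 1 without mouse 817. A lone pair of mice left in an arm was assumed to vary like the other groups. The counts under the 4-fold rule, at 0.05 and with single mice left out are given without the share of all genes passing. They are therefore not set against a background.

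With the mouse as a random replicate block the GFP interaction count went from 0 to 1 (S100a3), and as a fixed block S100a7a was added between the Co groups. The block changed no other call of the 10 genes. Over all genes tested, the random block raised the passing count from 62 to 230 for b-KC GFP against Tom, from 636 to 987 for HF-SC GFP against Tom, from 664 to 1382 for the GFP interaction and from 1026 to 1704 for the Tom interaction.

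Rescaling to 1 upper quartile moved the median change of all genes by 0.156 between the Co groups, and rescaling to 1 sum without the S100 genes moved it by 0.263 there, by -0.102 for the Tom fraction of HF-SCs, by -0.161 and -0.147 for the GFP and Tom fractions of b-KCs, and by 0.131 for the GFP interaction. Direction turned only in results that did not pass, all with an adjusted p of 0.33 or more. By rescaling, S100a6 in b-KC GFP became -0.084, S100a14 in b-KC Tom -0.094 (upper quartile) and -0.19, and S100a11 in HF-SC GFP against Tom 0.050. With single mice left out, log2 values ran from -0.053 to 0.093 for S100a14 in b-KC Tom. For HF-SC GFP against Tom they ran from -0.11 to 0.56 for S100a4 and from -0.041 to 0.017 for S100a11. For b-KC GFP against Tom they ran from -0.30 to 0.050 for S100a3, -0.55 to 0.11 for S100a7a, -0.44 to 0.11 for S100a10, -0.11 to 0.12 for S100a11 and -0.24 to 0.19 for S100a16. Between the Co groups S100a10 ran from -0.091 to 0.35. For the GFP interaction S100a7a ran from -0.47 to 0.088 and S100a11 from -0.0060 to 0.28, and for the Tom interaction S100a10 ran from -0.71 to 0.31, S100a11 from -0.078 to 0.32 and S100a16 from -0.11 to 0.19. The causes were not tested. With 3 mice a group and controls as unequal as mouse 825, smaller changes of S100a8 and S100a9 between populations may be missed, and depth limits S100a7a in b-KC Co and, of the other S100 symbols, S100a5 and S100z, which stayed under the worth of 3 reads in every library.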
